A study of Arabidopsis thaliana with 48 samples.

Results

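In 3 of the stress combinations applied to Arabidopsis thaliana seedlings, 165 genes had moved away from Control in the same direction. These combinations were paraquat with high light and heat (PQ + HL + HS), salt with paraquat and high light (Salt + PQ + HL), and all of these stresses together (Salt + PQ + HL + HS). A gene was a member when its mean over the 48 libraries was at least 50 normalized counts and its group mean was at least 1.5 times the Control mean in all 3 combinations, or at most the Control mean divided by 1.5 in all 3. Of the 32833 genes in the table, 19244 had such a mean, and of these 86 rose (0.447%) and 79 fell (0.411%). The rule used the group means of Control and of the 3 combinations, so the members were chosen by these measured values, and the values in these 4 groups are a description with no test.

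The plants were wild-type Col-0 seedlings grown on plates and collected as whole pooled seedlings at an age of 10 days, with 3 libraries in each of 16 groups. Salt was 50 mM NaCl and PQ was 0.05 µM of the herbicide paraquat, which passes electrons from photosystem I to oxygen. HL was a light intensity of 700 µmol per square metre per second and HS a temperature of 33 °C, both applied for 1.5 h, against 50 µmol and 21 °C in plants without them. The 12 other treatments were Salt, PQ, HL and HS alone, each pair of them, and the triples of Salt + HS with either PQ or HL, and Control plants had none of these stresses. Library depth was 67888254 to 87569857 reads with a median of 76882710. RNA was taken from whole seedlings, so fewer cells of a type and less RNA per cell cannot be told apart in any value here.

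Heat stress is sensed in plants as an accumulation of unfolded protein, on which heat shock factors switch on genes for heat shock proteins within minutes. Salt raises sodium in the cell, competes with potassium uptake and evokes abscisic acid (ABA) responses, and high light and paraquat both load the chloroplast with reactive oxygen species. Root hairs are tubular outgrowths of root epidermal cells that take up water and ions, and their walls are rich in extensins, expansins and xyloglucan-modifying enzymes.

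The labels of the 3 combinations did not go with the markers of the stresses they name. The summed level of 20 heat response genes had medians of 11815 normalized counts in the libraries labelled PQ + HL + HS, 11736 in those labelled Salt + PQ + HL and 9691 in those labelled Salt + PQ + HL + HS, against 11072 in Control. These are the levels of unheated plants, although 2 of the 3 combinations are labelled as heated. The same sum had a median of 417670 in the libraries labelled HS, and of 1540635, 3052681 and 1716064 in those labelled Salt, PQ and HL, none of which is labelled as heated. Its highest median, 16366717, was in HL + HS. The ABA response list had median log2 ratios to Control of 0.13 to 0.15 in the 3 combinations and of 0.55 to 2.78 in the 12 other treatments. In what follows, a group name means the libraries that carry this label, and no group was renamed. Effects computed by label (salt, paraquat, high light and heat below) are differences between labels.

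**Figure D1:**
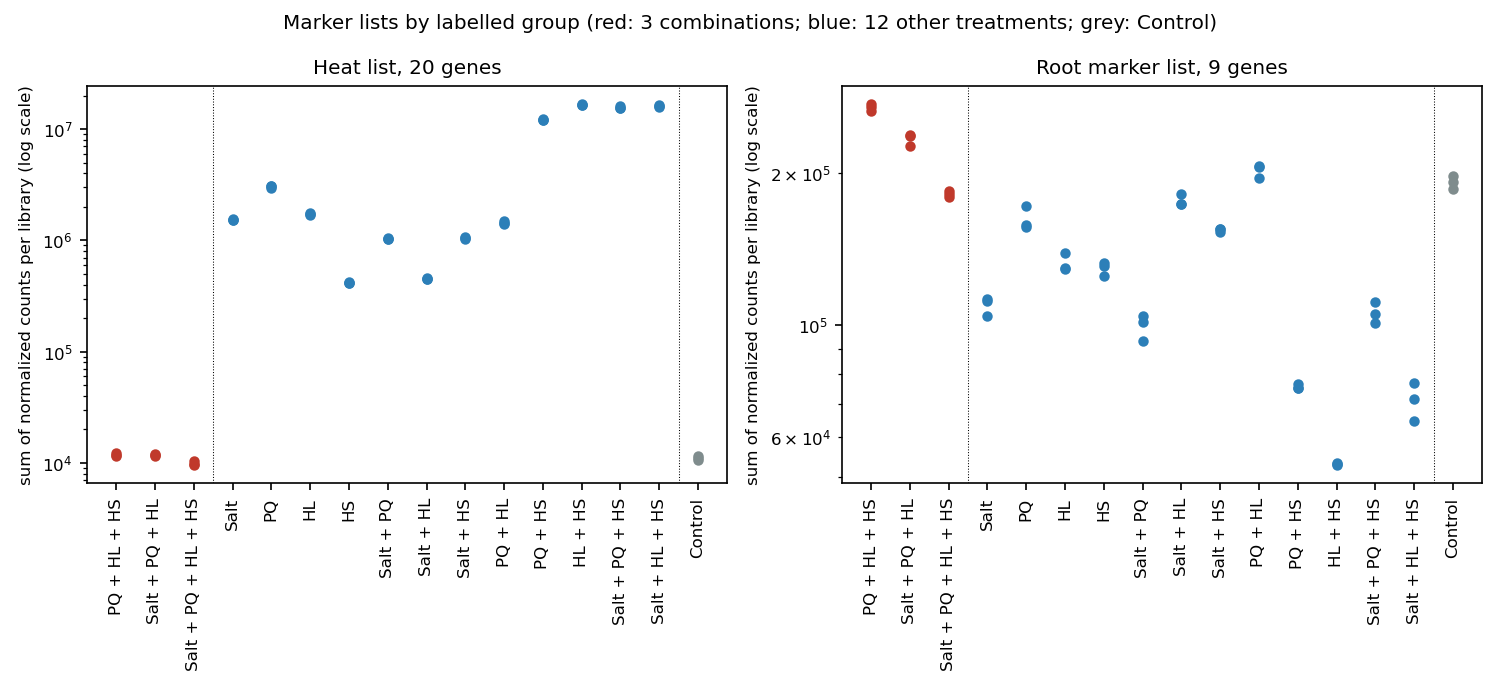
Sums of the heat list (left) and the root marker list (right) in the 48 libraries, with the labelled groups on the x axis (Control last) and summed normalized counts per library on a log y axis. Each point is a library. The heat sum of the 9 libraries of the 3 combinations (red) lies at the Control level, near 11072 normalized counts, and that of the 36 libraries of the other treatments (blue) lies above it.

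The 86 members that rose held 7 genes named root hair specific and the aquaporins TIP2;2 and TIP2;3, and they changed by modest amounts. Their median log2 ratio of group mean to Control mean was 1.05 under PQ + HL + HS, 1.68 under Salt + PQ + HL and 0.79 under Salt + PQ + HL + HS. The change was largest under Salt + PQ + HL for 70 of the 86 and smallest under Salt + PQ + HL + HS for 61. The smallest of a member's 3 fold changes had a median of 1.66 and reached at most 3.11, and 18 members were at least 2-fold higher in all 3. All 9 libraries of the combinations lay above the 3 Control libraries for 74 of the 86. The rule was set on the means of these same libraries, so the choice of members favours such a separation.

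The 79 members that fell held 6 genes of the flavonoid list, 4 of the camalexin and indole list and 3 of the heat list. Their median log2 ratio was -0.87 under PQ + HL + HS, -1.22 under Salt + PQ + HL and -1.11 under Salt + PQ + HL + HS, and PQ + HL + HS had the smallest change for 51 of the 79. The median of the smallest fold was 1.73, the largest was 10.0, and 23 members were at least 2-fold lower in all 3. All 9 libraries lay below the 3 Control libraries for 69 of the 79, which the choice of members favours in the same way. No share of all genes is given beside either count of separated members, and nothing is read from them. Over all genes with a mean of at least 50, the median log2 ratio in these groups was within 0.02 of 0.

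At the threshold, the rising members with the smallest margin were AT1G30870 and ROPGEF4, with a smallest fold of 1.51 each, and AT1G30050 (1.50 after rounding, just under the threshold) and MAP18 (1.49) stayed outside. Among falling genes, AT2G15220 (1.51) and IGMT2 (1.52) were the last inside, and AT1G31690 and AT1G67270 (both 1.49) stayed outside. A single combination moved far more genes than the rule on all 3. The share of genes past 1.5-fold was 2.16% higher and 1.41% lower under PQ + HL + HS, 3.85% and 2.84% under Salt + PQ + HL, and 3.53% and 3.37% under Salt + PQ + HL + HS.

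Stretches before the start of members are shown next because the members moved together in the combinations. For each member that ranked highest by the smallest of its 3 changes, with all 9 libraries apart from Control, the 250 bases before the annotated start are printed 5′ to 3′ on the gene's own strand, from the RefSeq TAIR10.1 assembly. Capitals mark matches on either strand to a searched motif: the heat shock element GAANNTTC, the ABRE core ACGTG, the W-box core TTGAC and the DRE core CCGAC. Of the rising members, TPS13, TIP2;3 and HAK5 are shown.
TPS13 (AT4G13300), chr4:7746395-7746644, minus strand: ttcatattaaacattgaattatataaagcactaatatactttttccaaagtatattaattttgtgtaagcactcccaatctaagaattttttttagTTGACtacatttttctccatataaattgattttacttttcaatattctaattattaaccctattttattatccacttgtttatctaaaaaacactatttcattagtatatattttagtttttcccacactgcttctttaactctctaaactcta
TIP2;3 (AT5G47450), chr5:19249623-19249872, minus strand: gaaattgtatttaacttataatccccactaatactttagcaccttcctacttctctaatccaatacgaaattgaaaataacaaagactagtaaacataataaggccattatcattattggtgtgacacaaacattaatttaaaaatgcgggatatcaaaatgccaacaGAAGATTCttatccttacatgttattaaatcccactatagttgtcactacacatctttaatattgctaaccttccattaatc
HAK5 (AT4G13420), chr4:7802252-7802501, minus strand: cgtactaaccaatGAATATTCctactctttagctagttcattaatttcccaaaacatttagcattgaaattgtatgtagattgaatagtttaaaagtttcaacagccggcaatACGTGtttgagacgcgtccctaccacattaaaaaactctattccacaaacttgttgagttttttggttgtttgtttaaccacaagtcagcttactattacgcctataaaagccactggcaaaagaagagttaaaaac
Of the falling members, AT1G18830, NUDT24 and CYP82C2 are shown.
AT1G18830 (AT1G18830), chr1:6488983-6489232, plus strand: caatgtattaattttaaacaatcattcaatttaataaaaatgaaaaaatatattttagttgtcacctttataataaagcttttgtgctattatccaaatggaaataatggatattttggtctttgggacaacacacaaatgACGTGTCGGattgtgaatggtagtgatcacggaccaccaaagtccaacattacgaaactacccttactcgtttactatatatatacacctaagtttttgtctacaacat
NUDT24 (AT5G19470), chr5:6566021-6566270, plus strand: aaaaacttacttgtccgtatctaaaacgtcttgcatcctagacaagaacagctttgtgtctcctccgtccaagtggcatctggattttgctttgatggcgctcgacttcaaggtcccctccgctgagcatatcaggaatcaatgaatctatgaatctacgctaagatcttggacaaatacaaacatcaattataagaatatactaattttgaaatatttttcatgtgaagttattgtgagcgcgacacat
CYP82C2 (AT4G31970), chr4:15462100-15462349, plus strand: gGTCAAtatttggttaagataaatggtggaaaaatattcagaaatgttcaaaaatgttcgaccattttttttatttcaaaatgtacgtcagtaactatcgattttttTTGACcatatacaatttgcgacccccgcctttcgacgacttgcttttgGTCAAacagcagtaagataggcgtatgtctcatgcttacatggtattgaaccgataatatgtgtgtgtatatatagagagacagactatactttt
In HAK5 a heat shock element and an ABRE core lie in the same window, in AT1G18830 the ABRE core and a DRE core on the other strand overlap in the same run of capitals, and CYP82C2 holds 3 W-box cores. NUDT24 had none of the searched motifs in its window.

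Promoters of 162 members could be read, 86 that rose and 76 that fell. The ABRE core, bound by factors of ABA signalling, was in 40.7% of the rising and 40.8% of the falling promoters, against 24.0% of the 19169 promoters of genes with a mean of at least 50 and 21.8% of all 32545. The W-box core, bound by WRKY factors, was in 67.1% of the falling and 50.0% of the rising promoters, against 45.0% of those 19169. The heat shock element was in 17.1% of the falling and 6.98% of the rising promoters, against 9.29%. The G-box CACGTG, which contains an ABRE core, was in 14.5% of the falling and 4.65% of the rising promoters, against 7.59%. The DRE core was in 17.4% of the rising and 5.26% of the falling promoters, against 13.1%. The site II motif TGGGCC, common in genes of dividing cells, was in 2.33% of the rising and 11.8% of the falling promoters, against 16.6%. The GCC-box GCCGCC, the evening element AAAATATCT and the telo-box AAACCCTA were each in under 4% of the promoters of either direction. These shares are descriptions, and a match is not a bound site.

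The largest group among the rising members by annotation was of root hairs, and it was picked after the values had been seen. RefSeq names 14 genes root hair specific, 13 of them had a mean of at least 50, and 7 of these rose (RSH3, RHS6, RHS12, RHS13, RHS14, RHS17 and RHS18) while 0 fell. XTH13, which cuts and rejoins xyloglucan in the wall, had 315, 293 and 332 normalized counts under PQ + HL + HS, 518, 402 and 523 under Salt + PQ + HL and 202, 163 and 193 under Salt + PQ + HL + HS, against 91.1, 53.5 and 94.9 in Control. RHS13 had 1050, 932 and 1047 under PQ + HL + HS, 2165, 2168 and 2348 under Salt + PQ + HL and 876, 812 and 830 under Salt + PQ + HL + HS, against 417, 296 and 482 in Control. Both were lowest among the combinations under Salt + PQ + HL + HS, and in neither did any of the 9 libraries reach down to a Control library.

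EXPA7, a root hair expansin that loosens walls, had 631, 611 and 627 normalized counts under PQ + HL + HS, 862, 871 and 953 under Salt + PQ + HL and 363, 405 and 362 under Salt + PQ + HL + HS, against 250, 221 and 251 in Control. ROPGEF12, an exchange factor that activates ROP GTPases, had 86.6, 58.9 and 68.1 under PQ + HL + HS, 142, 126 and 157 under Salt + PQ + HL and 71.6, 83.4 and 108 under Salt + PQ + HL + HS, against 22.4, 25.1 and 37.5 in Control. ROPGEF4 and ROPGEF10, of the same family and known for placing the site of root hair outgrowth, were also members. ROPGEF4 had 315, 314 and 307 under PQ + HL + HS, 418, 415 and 423 under Salt + PQ + HL and 276, 266 and 272 under Salt + PQ + HL + HS, against 156, 194 and 190 in Control, all apart. By family, and counting genes with a mean of at least 50, 3 of 11 ROPGEF genes, 3 of 26 XTH genes (XTH12, XTH13 and XTH26), 2 of 15 EXPA genes (EXPA7 and EXPA18) and 2 of 6 EXT genes (EXT12 and EXT13) rose.

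Across the 16 groups, the 7 root hair specific members had median log2 ratios to Control of 1.24 under PQ + HL + HS, 1.90 under Salt + PQ + HL and 0.80 under Salt + PQ + HL + HS. Among the other treatments, the highest medians were 1.71 in Salt, 1.24 in PQ + HS and 1.17 in Salt + HL, and the lowest were -1.63 in Salt + HL + HS, -0.46 in HL + HS and -0.45 in Salt + HS. XTH13 averaged 554 ± 119 normalized counts in Salt and 11 ± 10.6 in Salt + HL + HS, against 79.8 ± 22.9 in Control (SD, n = 3 each). RHS13 averaged 2091 ± 355 in Salt and 128 ± 38.8 in Salt + HL + HS, against 398 ± 94.7 in Control (SD, n = 3 each). The same members therefore stood above Control in some treatments and below it in others.

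Root hair cells share a promoter element of longer form, which was searched for on either strand after the root hair genes had been seen among the members. It was in 9 of the 86 rising promoters (10.5%) and in 1 of the 76 falling ones (1.32%), against 0.725% of promoters of genes with a mean of at least 50 and 0.716% of all. The matches of 8 of the 9 rising members are printed to show where the elements are alike and where they differ, with the element in capitals and flanking bases in lower case, 5′ to 3′ on the gene's strand, from RefSeq TAIR10.1.
ROPGEF4 (AT2G45890), chr2:18883308-18883348, plus strand: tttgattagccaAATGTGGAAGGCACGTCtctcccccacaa
ROPGEF10 (AT5G19560), chr5:6602877-6602909, plus strand: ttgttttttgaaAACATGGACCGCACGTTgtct
EXPA7 (AT1G12560), chr1:4276415-4276455, plus strand: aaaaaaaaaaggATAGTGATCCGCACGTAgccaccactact
RHS18 (AT5G22410), chr5:7426206-7426245, plus strand: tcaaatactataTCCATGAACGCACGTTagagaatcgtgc
RHS13 (AT4G02270), chr4:993221-993261, minus strand: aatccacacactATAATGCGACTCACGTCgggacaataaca
ABCA3 (AT3G47740), chr3:17600329-17600368, plus strand: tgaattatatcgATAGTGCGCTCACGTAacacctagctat
RSH3 (AT1G16440), chr1:5615691-5615730, plus strand: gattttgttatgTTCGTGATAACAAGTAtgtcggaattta
PRP1 (AT1G54970), chr1:20504760-20504800, plus strand: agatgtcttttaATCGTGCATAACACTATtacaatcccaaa
Of the 9 elements, 7 hold CACGT near the 3′ end, which is the ABRE core read from the other strand, so these promoters also count in the share given for that motif. The elements of RSH3 and PRP1 are matches on the other strand, so they run the opposite way in the printed stretches. They do not hold CACGT. The 8 printed elements lie between 5 and 210 bases before the start.

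Levels of root marker genes were for the most part also above Control in the 3 combinations. Of 9 root markers, 9 were above the Control mean under PQ + HL + HS, 9 under Salt + PQ + HL and 8 under Salt + PQ + HL + HS, with median log2 ratios of 0.58, 0.99 and 0.37. The markers were EXPA7, PRP3, COBL9, LRX1, CASP1, CASP5, ESB1, PYK10 and PER57. EXPA7, a root hair gene, is both a marker and a member, so the list is not a separate gauge of root content. The sum of the list was dominated by PYK10, and without it the other 8 genes summed to 10685 to 11633 normalized counts under PQ + HL + HS, 14449 to 15945 under Salt + PQ + HL and 8649 to 9199 under Salt + PQ + HL + HS, against 6877 to 8024 in Control. The same 8 genes summed to 11236 to 12908 in Salt and to 2303 to 3687 in Salt + HL + HS. The markers did not follow the rising members in every treatment. In HS and Salt + PQ the rising members had median log2 ratios of 0.74 and 1.1. The 9 markers had medians of -0.22 and -0.15 there. Whether the share of root in the harvested tissue had a part in the rising members was not tested.

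Transporters of water and potassium are given next, and those of potassium were picked after their values had been seen. TIP2;3, a tonoplast intrinsic protein that carries water and ammonia into the vacuole, had 2432, 2587 and 2360 normalized counts under PQ + HL + HS, 2626, 3094 and 2783 under Salt + PQ + HL and 1971, 1878 and 2090 under Salt + PQ + HL + HS, against 668, 805 and 692 in Control. TIP2;2, its close relative, had 15443, 15531 and 14091 under PQ + HL + HS, 17257, 19194 and 18476 under Salt + PQ + HL and 17806, 17621 and 17534 under Salt + PQ + HL + HS, against 9595, 10411 and 9699 in Control. The groups did not overlap for either gene. They were the 2 of 6 TIP genes with a mean of at least 50 that rose, and 0 of 12 such PIP genes, which code for aquaporins of the plasma membrane, were members. TIP2;3 was called higher in each of the 12 other treatments, from 1241 ± 95.5 in Salt + HS to 8436 ± 583 in Salt, against 722 ± 73.4 in Control (SD, n = 3 each), and TIP2;2 averaged 57353 ± 1715 in Salt.

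HAK5, the high-affinity potassium uptake transporter of roots, had 90.6, 113 and 125 normalized counts under PQ + HL + HS, 69.9, 110 and 124 under Salt + PQ + HL and 83.9, 103 and 73.3 under Salt + PQ + HL + HS, against 28.8, 31.6 and 36.7 in Control. RAP2.11, a transcription factor known for switching on HAK5 at low potassium, had 198, 219 and 200 under PQ + HL + HS, 346, 318 and 346 under Salt + PQ + HL and 147, 145 and 152 under Salt + PQ + HL + HS, against 87.1, 66.4 and 112 in Control. SKOR, which releases potassium into the xylem, had 401, 371 and 413 under PQ + HL + HS, 449, 500 and 416 under Salt + PQ + HL and 444, 456 and 445 under Salt + PQ + HL + HS, against 260, 317 and 195 in Control. For each of the 3 genes, every library of the combinations lay above every Control library. In the other treatments HAK5 averaged 203 ± 50.5 in Salt and 8.68 ± 1.13 in Salt + HL + HS, against 32.3 ± 4.01 in Control (SD, n = 3 each), and RAP2.11 averaged 350 ± 27.2 in Salt and 70.7 ± 5.37 in Salt + HL + HS, against 88.4 ± 22.6 in Control.

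AT5G15120 and LBD41, known for induction at low oxygen, were picked after their values had been seen, and no list of such genes was counted. AT5G15120 (PCO1 in the RefSeq annotation), a plant cysteine oxidase that marks factors of the low-oxygen response for breakdown, had 176, 200 and 213 normalized counts under PQ + HL + HS, 210, 262 and 251 under Salt + PQ + HL and 219, 210 and 204 under Salt + PQ + HL + HS, against 89.5, 98 and 78.1 in Control. LBD41, a transcription factor of the lateral organ boundaries family, had 347, 351 and 313 under PQ + HL + HS, 348, 333 and 375 under Salt + PQ + HL and 386, 384 and 390 under Salt + PQ + HL + HS, against 217, 209 and 242 in Control. In both genes the levels of the 3 combinations lay close together and above Control. Both were called higher in each of the 12 other treatments, with the highest means at 719 ± 33.9 in PQ + HS for AT5G15120 and 2443 ± 281 in Salt + PQ + HS for LBD41 (SD, n = 3 each).

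TPS13, a terpene synthase, had 23.8, 39.8 and 26.9 normalized counts under PQ + HL + HS, 49.9, 53 and 63.2 under Salt + PQ + HL and 43.6, 47.7 and 53 under Salt + PQ + HL + HS, against 10.4, 13 and 6.38 in Control. Its neighbour on the chromosome, CYP71A20, a cytochrome P450, was also a rising member. In the other treatments TPS13 averaged 216 ± 38 in Salt and 7.98 ± 3.3 in HL (SD, n = 3 each). AT2G38240, annotated as an oxygenase that uses iron and oxoglutarate, had 44.5, 32.9 and 28.5 under PQ + HL + HS, 83.2, 63.6 and 47.6 under Salt + PQ + HL and 20.6, 34.1 and 34.3 under Salt + PQ + HL + HS, against 13.6, 9.72 and 12.8 in Control. AT1G10585, annotated as a basic helix-loop-helix factor, had 38.1, 45.9 and 44.4 under PQ + HL + HS, 93.2, 95.5 and 71.4 under Salt + PQ + HL and 50.2, 47.7 and 58.5 under Salt + PQ + HL + HS, against 22.4, 21.9 and 12.8 in Control. AT4G04990, of a family without known function, had 158, 164 and 151 under PQ + HL + HS, 316, 286 and 308 under Salt + PQ + HL and 163, 124 and 162 under Salt + PQ + HL + HS, against 58.3, 55.9 and 58.2 in Control. In all 4 of these genes the 9 libraries lay above the Control libraries.

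PDF1.2c, a plant defensin of the jasmonate and ethylene response, had 7.15, 2.6 and 12.7 normalized counts under PQ + HL + HS, 151, 179 and 203 under Salt + PQ + HL and 35.4, 21.3 and 39.8 under Salt + PQ + HL + HS, against 0, 2.43 and 4.78 in Control. The PQ + HL + HS and Control libraries overlapped. FT, the mobile flowering signal made in leaves, had 51.6, 38.1 and 40.4 under PQ + HL + HS, 90.7, 91 and 89.2 under Salt + PQ + HL and 56, 73.2 and 65.5 under Salt + PQ + HL + HS, against 21.6, 34 and 13.6 in Control, with no overlap. FT is a member outside the groups above and was named after its values had been seen.

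ELI3-2, an alcohol dehydrogenase induced by elicitors, and LEA3, a late embryogenesis abundant protein, were the rising members that differed most between the 12 other treatments in the light by heat test described further on. ELI3-2 had 22.2, 173 and 58.6 normalized counts under PQ + HL + HS, 29.1, 24.7 and 12.6 under Salt + PQ + HL and 3.29, 11.1 and 4.68 under Salt + PQ + HL + HS, against 1.6, 2.43 and 3.99 in Control. Its libraries under Salt + PQ + HL + HS overlapped with Control, and those under PQ + HL + HS differed widely among themselves. LEA3 had 1473, 1502 and 1416 under PQ + HL + HS, 2070, 1970 and 2055 under Salt + PQ + HL and 1199, 1340 and 1177 under Salt + PQ + HL + HS, against 806, 783 and 789 in Control, with no overlap.

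**Figure D2:**
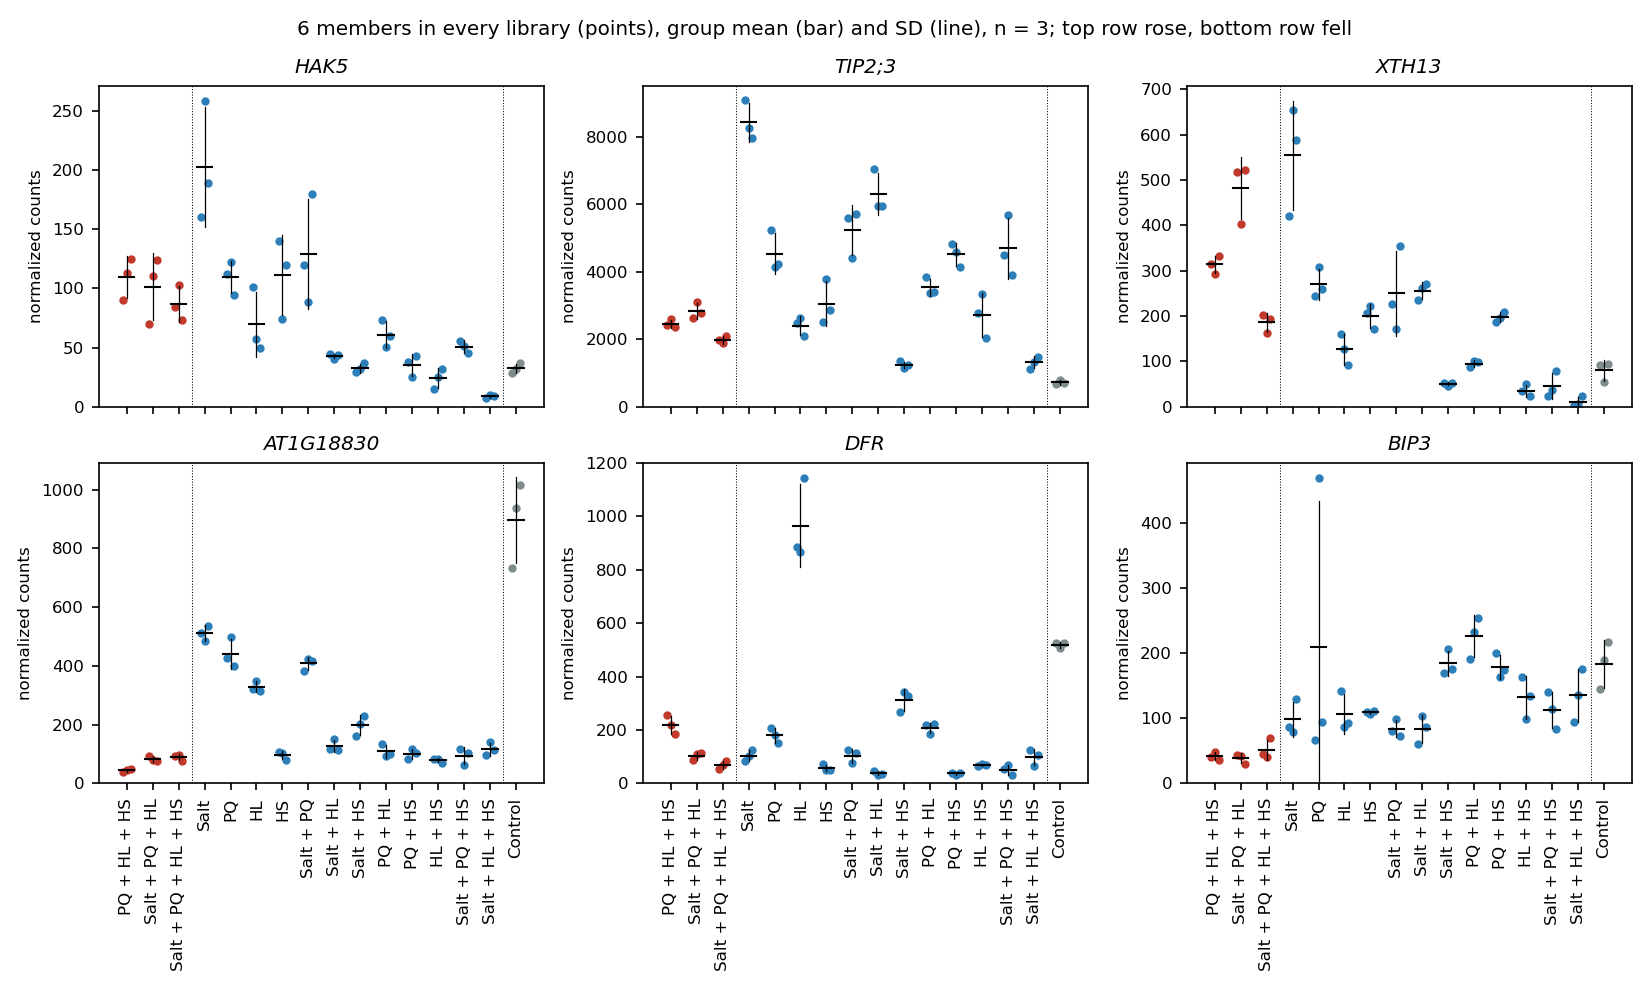
Normalized counts (y axis, linear from 0) of 6 members in every library, with HAK5, TIP2;3 and XTH13, which rose, in the upper row and AT1G18830, DFR and BIP3, which fell, in the lower row. Points are libraries, bars are group means and thin lines the SD of 3 libraries, and the labelled groups run along the x axis with Control last. TIP2;3 lies above Control in every treatment, whereas XTH13 averages 554 in Salt and 11 in Salt + HL + HS, against 79.8 in Control.

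Of the falling members, AT1G18830 changed most. RefSeq gives it the synonym SEC31A, and SEC31 proteins form the outer coat of vesicles that leave the endoplasmic reticulum (ER). It had 38.1, 45.9 and 49.1 normalized counts under PQ + HL + HS, 94, 78.7 and 77.3 under Salt + PQ + HL and 93.8, 97.1 and 77.2 under Salt + PQ + HL + HS, against 733, 939 and 1015 in Control. No library of any treatment reached the Control level, and the highest of the 12 other treatments was Salt at 512 ± 25.9 (SD, n = 3).

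BIP3, NAC103 and ERDJ3A, known from the ER and its unfolded protein response, were picked after their values had been seen, and no list of such genes was counted. BIP3, an ER chaperone induced when unfolded protein accumulates, had 41.3, 48.5 and 36.4 normalized counts under PQ + HL + HS, 44.1, 42.4 and 29.7 under Salt + PQ + HL and 45.3, 40.9 and 69.4 under Salt + PQ + HL + HS, against 145, 190 and 217 in Control. NAC103, a transcription factor that acts downstream of bZIP60 in that response, had 65.1, 64 and 57 under PQ + HL + HS, 66.6, 45.1 and 61 under Salt + PQ + HL and 46.1, 65.6 and 49.1 under Salt + PQ + HL + HS, against 109, 119 and 106 in Control. ERDJ3A, a DnaJ co-chaperone of the ER, had 229, 255 and 221 under PQ + HL + HS, 275, 209 and 281 under Salt + PQ + HL and 230, 227 and 252 under Salt + PQ + HL + HS, against 480, 528 and 498 in Control. None of the 3 genes overlapped with Control. In PQ the BIP3 libraries were 469, 67.1 and 93.7, with 1 library far above the others. In the 12 other treatments they went apart, since NAC103 was called lower in all 12 and ERDJ3A higher in all 12, with ERDJ3A at 69047 ± 874 in HL + HS, against 502 ± 24.4 in Control (SD, n = 3 each).

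Here and below, a gene is called measured when its mean over the 48 libraries was at least 50 normalized counts. Of 13 measured genes of the flavonoid list, 6 fell (DFR, LDOX, UF3GT, PAP1, GSTF12 and 5MAT) and 0 rose. PAP1 is the MYB factor that switches on anthocyanin synthesis, DFR and LDOX make the coloured aglycone, UF3GT and 5MAT add sugar and malonyl groups, and GSTF12 is needed for transport into the vacuole. DFR had 255, 217 and 185 normalized counts under PQ + HL + HS, 86.5, 110 and 114 under Salt + PQ + HL and 53.5, 69 and 85.8 under Salt + PQ + HL + HS, against 525, 506 and 525 in Control. PAP1 had 121, 114 and 121 under PQ + HL + HS, 36.6, 38.9 and 43.9 under Salt + PQ + HL and 26.3, 37.5 and 21.8 under Salt + PQ + HL + HS, against 217, 151 and 221 in Control. LDOX had 229, 177 and 174 under PQ + HL + HS, 83.2, 105 and 91.5 under Salt + PQ + HL and 57.6, 79.2 and 60 under Salt + PQ + HL + HS, against 369, 386 and 404 in Control. These genes were lower in both salt combinations than under PQ + HL + HS, and no library reached the Control level.

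UF3GT had 112, 99.5 and 94.3 normalized counts under PQ + HL + HS, 19.1, 36.2 and 25.3 under Salt + PQ + HL and 18.1, 26.4 and 19.5 under Salt + PQ + HL + HS, against 218, 210 and 194 in Control. GSTF12 had 195, 160 and 174 under PQ + HL + HS, 96.5, 99.9 and 115 under Salt + PQ + HL and 60.1, 66.4 and 63.1 under Salt + PQ + HL + HS, against 375, 311 and 356 in Control. In the libraries labelled HL alone the pathway went the other way, with PAP1 at 1298 ± 41.6 and DFR at 966 ± 156, against 196 ± 39.3 and 519 ± 10.9 in Control (SD, n = 3 each). PQ + HS had the lowest DFR among the other treatments, at 37.3 ± 4.01.

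Of 13 measured genes of the camalexin and indole list, 4 fell (CYP71A12, CYP82C2, AT1G26410 and GSTF6) and 0 rose. CYP82C2, a P450 that makes a hydroxylated indole cyanogenic compound, had 0, 0.865 and 0 normalized counts under PQ + HL + HS, 50.7, 95.5 and 72.9 under Salt + PQ + HL and 29.6, 19.6 and 12.5 under Salt + PQ + HL + HS, against 278, 268 and 395 in Control. CYP71A12, which turns indole acetaldoxime into the nitrile used by this pathway and by camalexin synthesis, had 47.7, 59.7 and 63.4 under PQ + HL + HS, 576, 910 and 584 under Salt + PQ + HL and 127, 93.7 and 184 under Salt + PQ + HL + HS, against 1443, 1360 and 1730 in Control. AT1G26410, an oxidase of the berberine bridge enzyme family, had 7.94, 13 and 13.5 under PQ + HL + HS, 66.6, 52.1 and 59.5 under Salt + PQ + HL and 15.6, 10.2 and 32 under Salt + PQ + HL + HS, against 109, 129 and 149 in Control. In these 3 genes the mean was lowest under PQ + HL + HS and least changed under Salt + PQ + HL, and no library reached the Control level.

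GSTF6, a glutathione transferase of camalexin synthesis, had 2545, 2763 and 2631 normalized counts under PQ + HL + HS, 2561, 2789 and 2419 under Salt + PQ + HL and 1921, 1973 and 2382 under Salt + PQ + HL + HS, against 5156, 5580 and 5605 in Control. Of 10 measured GSTF genes 4 fell, and GSTF6 and its neighbour GSTF7 share sequence (89.7% of the 50-base exon windows of GSTF6 occur once in the genome), so reads could be split between them. Of the other treatments, HL had the highest GSTF6, 21016 ± 1623, and CYP71A12 was highest in PQ + HL at 3888 ± 308 and lowest in Salt + HL at 24.8 ± 6.55 (SD, n = 3 each). CYP82C2 was highest in Salt + HS, at 493 ± 140, against 314 ± 70.4 in Control.

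Seed storage genes were low in the combinations. Of 4 measured seed markers, CRU3 (a cruciferin) and OLEO1 (an oleosin of oil bodies) fell, and SESA5, a storage albumin that is no marker here, was also a member. SESA5 had 38.9, 51.9 and 55.5 normalized counts under PQ + HL + HS, 45.8, 54.8 and 52 under Salt + PQ + HL and 46.9, 27.2 and 35.1 under Salt + PQ + HL + HS, against 191, 126 and 138 in Control. CRU3 had 50, 94.3 and 263 under PQ + HL + HS, 128, 125 and 109 under Salt + PQ + HL and 120, 90.2 and 143 under Salt + PQ + HL + HS, against 268, 308 and 381 in Control. For CRU3 the spread within PQ + HL + HS was wide, with replicate 3 close to Control. Of 7 seed markers, 5 were below Control under PQ + HL + HS, 7 under Salt + PQ + HL and 7 under Salt + PQ + HL + HS, and the part that leftover seed material had in these genes was not tested. Among the other treatments CRU3 averaged 1069 ± 446 in HL + HS and 51.1 ± 29.1 in Salt + HS (SD, n = 3 each).

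Of 20 measured heat response genes, the small heat shock proteins HSP17.6A, HSP17.4 and HSP22.0 fell in all 3 combinations. HSP17.6A, a chaperone that keeps unfolding proteins soluble, had 78.6, 83.1 and 70.5 normalized counts under PQ + HL + HS, 101, 69.8 and 91.5 under Salt + PQ + HL and 76.5, 66.4 and 79.5 under Salt + PQ + HL + HS, against 165, 165 and 154 in Control. HSP22.0, of the ER, was near the limit of detection, with 3.97, 1.73 and 9.51 under PQ + HL + HS, 2.5, 4.42 and 5.2 under Salt + PQ + HL and 3.29, 6.81 and 5.46 under Salt + PQ + HL + HS, against 12.8, 4.86 and 15.1 in Control, and its groups overlapped. All 3 genes were called higher in each of the 12 other treatments, with HSP17.6A at 621926 ± 28952 in HL + HS and 17251 ± 410 in HS, against 161 ± 6.39 in Control (SD, n = 3 each). Their mean over the 48 libraries, which the rule required to be at least 50, came from these treatments.

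LSU1 and LSU3, known from their induction at low sulfur, were 2 of 3 measured LSU genes and neighbours on the chromosome. LSU1 had 243, 241 and 240 normalized counts under PQ + HL + HS, 202, 197 and 204 under Salt + PQ + HL and 216, 203 and 240 under Salt + PQ + HL + HS, against 567, 501 and 557 in Control. LSU3 had 238, 210 and 236 under PQ + HL + HS, 171, 117 and 151 under Salt + PQ + HL and 148, 161 and 164 under Salt + PQ + HL + HS, against 427, 316 and 322 in Control, with no overlap for either gene. Of the 11 measured genes of the sulfur list, LSU1 was the sole member.

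NRT1.8, which takes nitrate back out of the xylem, had 335, 396 and 360 normalized counts under PQ + HL + HS, 177, 192 and 210 under Salt + PQ + HL and 205, 242 and 268 under Salt + PQ + HL + HS, against 686, 553 and 616 in Control. CHI, the chitinase gene AT2G43570 and not chalcone isomerase, had 466, 433 and 441 under PQ + HL + HS, 412, 460 and 404 under Salt + PQ + HL and 407, 371 and 425 under Salt + PQ + HL + HS, against 1051, 938 and 1127 in Control. NUDT24, a nudix hydrolase, had 30.2, 30.3 and 26.9 under PQ + HL + HS, 15.8, 9.72 and 12.6 under Salt + PQ + HL and 12.3, 9.37 and 9.35 under Salt + PQ + HL + HS, against 250, 196 and 201 in Control. The groups of all 3 genes were apart from Control. NUDT24 averaged 875 ± 44.2 in HL and 6.31 ± 7.64 in PQ + HS, and CHI averaged 5072 ± 419 in Salt + PQ + HS, against 1039 ± 94.8 in Control (SD, n = 3 each).

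AT1G43910, annotated as a P-loop nucleoside triphosphatase, had 220, 356 and 197 normalized counts under PQ + HL + HS, 220, 215 and 219 under Salt + PQ + HL and 250, 272 and 249 under Salt + PQ + HL + HS, against 591, 737 and 574 in Control. AT1G42980, annotated as a formin, was low throughout, with 10.3, 8.65 and 4.75 under PQ + HL + HS, 6.66, 6.19 and 5.95 under Salt + PQ + HL and 6.58, 3.41 and 7.02 under Salt + PQ + HL + HS, against 12.8, 24.3 and 20.7 in Control. In both genes the 9 libraries lay below the Control libraries, and AT1G42980 reached 309 ± 23.3 in Salt + PQ + HS (SD, n = 3).

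Some members rested on few reads. In every Control library, AT3G16040 had 1 to 2 reads, AT5G53680 1 to 3 and SVL5 0 to 3, all at or under a limit of 3 reads, and 10 members had at most 10 reads in a Control library. AT5G53680 had at most 1 read in each of the 9 libraries of the combinations, so no fold is given for it. Reads of near-identical genes could also be misplaced. For 155 of the 162 members with exons in the RefSeq annotation, at least 90% of the 50-base exon windows occur once in the genome, with the lowest shares in AT4G08400 (43.8%), AT4G08410 (47.4%) and IGMT2 (63.3%). Among the members, 5 pairs were neighbours on a chromosome, and both genes of each pair moved in the same direction.

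In the 12 other treatments the median level of the 86 rising members ran from above to below Control, and so did that of the 79 falling members. Over all genes with a mean of at least 50, the median log2 ratio was within 0.02 of 0 in each. The median log2 ratio of the rising members was highest in Salt (1.95), followed by PQ + HS (1.48), PQ (1.25), Salt + HL (1.2), Salt + PQ (1.1), HS (0.74), PQ + HL (0.56), HL (0.27), Salt + PQ + HS (0.26), HL + HS (-0.05), Salt + HS (-0.22) and Salt + HL + HS (-0.83). For the falling members it was lowest in Salt + HL (-1.17), followed by PQ + HS (-1.11), Salt (-0.81), HL + HS (-0.79), Salt + PQ (-0.74), HS (-0.51), Salt + HL + HS and Salt + PQ + HS (both -0.26), PQ (-0.21), PQ + HL (0.00), Salt + HS (0.34) and HL (0.75). Taking each member's median over the 12 treatments, 73 of the 86 rising members were above Control and 13 below (3 of them by at least 1.5-fold), and 56 of the 79 falling members were below Control and 23 above (19 of them by at least 1.5-fold). The rule used the same Control libraries, which favours the members' own direction. The shares of all genes were not counted, and nothing is read from these counts.

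**Figure D3:**
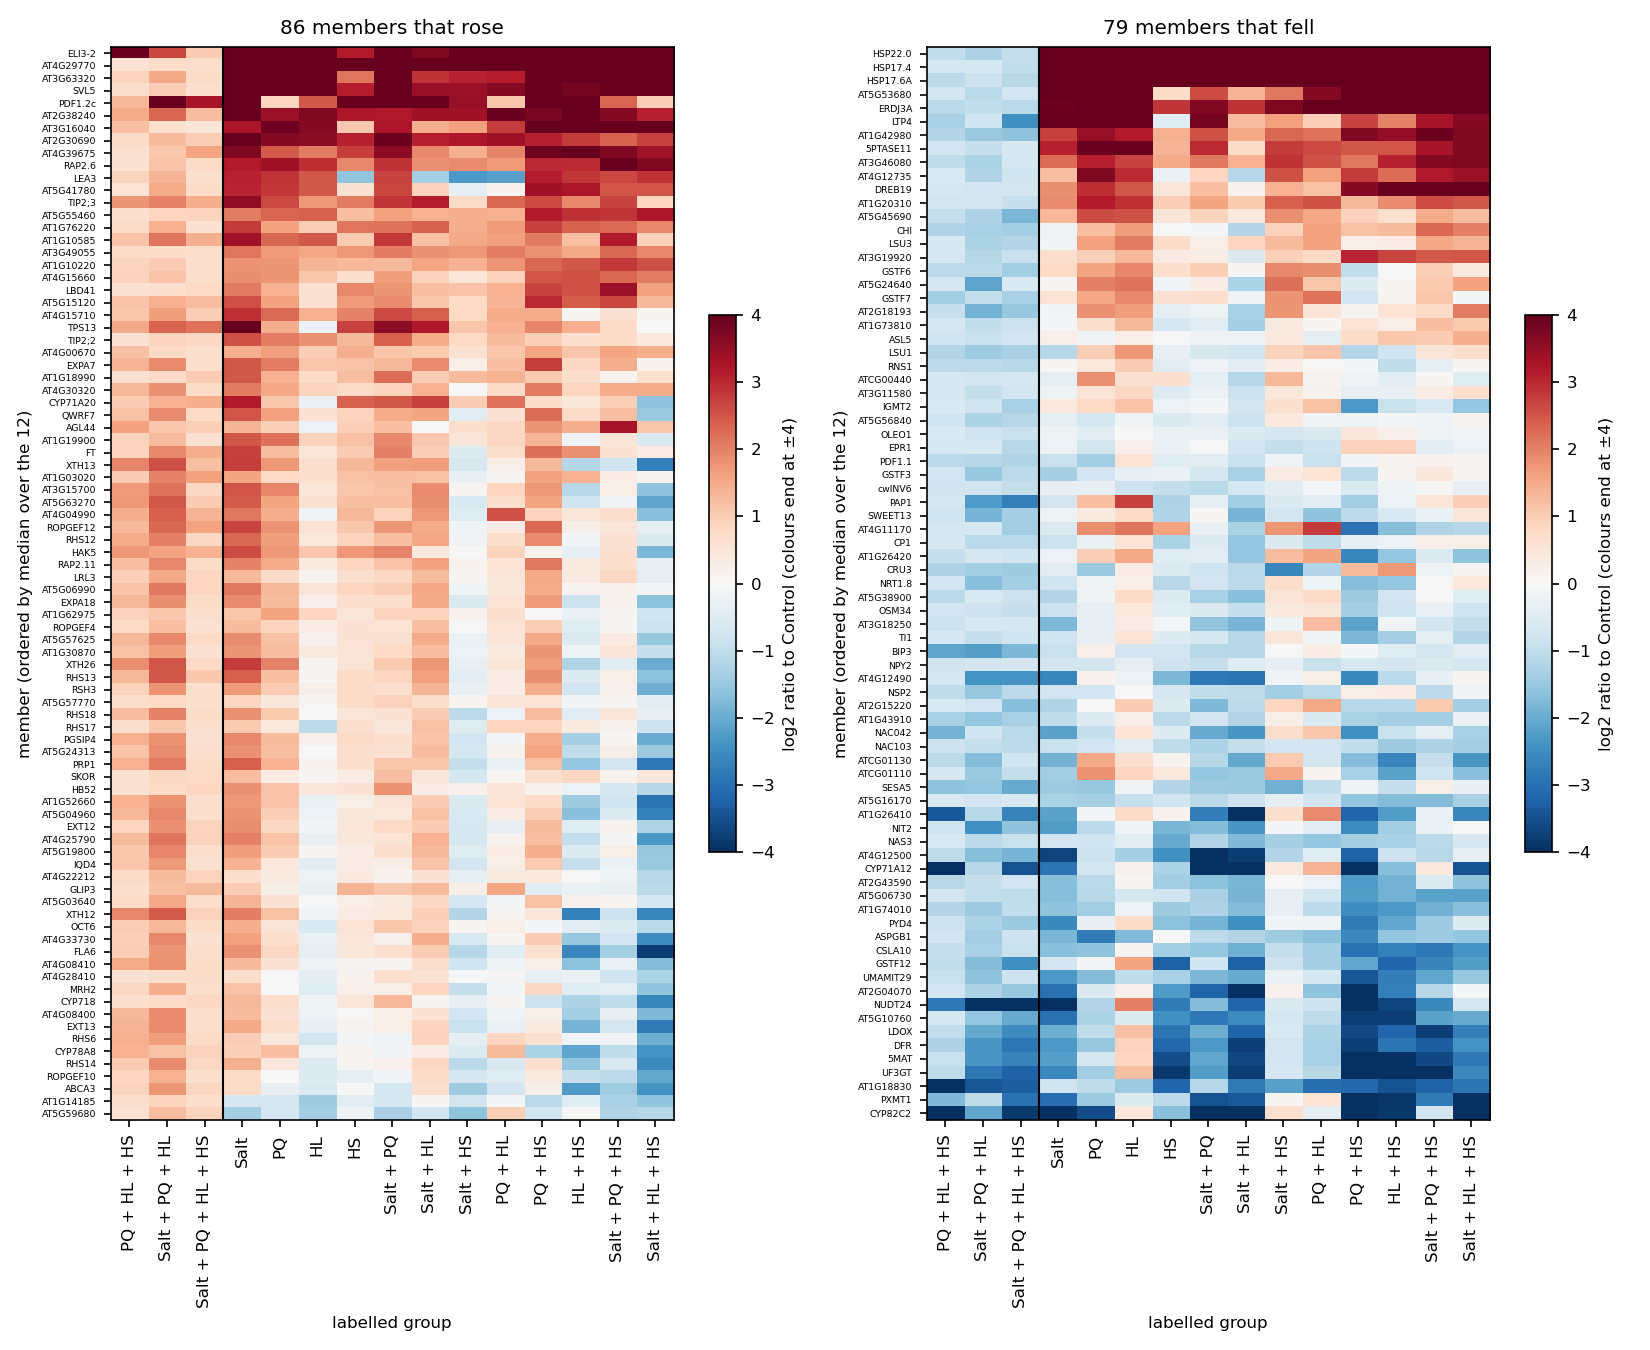
Log2 ratio of the group mean to the Control mean for the 86 rising members (left) and the 79 falling members (right), with a row per member, ordered by its median over the 12 other treatments, and a column per labelled group. Red is above Control and blue below, and the colours end at 4 on either side. The first 3 columns are the combinations of the rule, where the choice of members fixes the colour. In the other columns the rising members are mostly above Control in Salt (median 1.95) and mostly below it in Salt + HL + HS (median -0.83).

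Each of the 12 treatments was compared with Control by limma on log2(value + 1), with Benjamini-Hochberg adjustment over 21536 genes and a threshold of 0.05. These comparisons share the 3 Control libraries with the rule and with each other. The rule chose rising members that were low, and falling members that were high, in those libraries, so it favours calls in the members' own direction, and the share of all genes called, given beside each count, is not the share to expect of genes chosen in this way. Nothing is read from a count that lies above it. The level filter bears on the counts too. Neither Control nor any of the 3 combinations had a mean of 50 normalized counts in 10 of the rising and 9 of the falling members, which passed the minimum only through the 12 other treatments. These are the least numbers, since a member can reach 50 in some of these groups and average less over them. Such members were not counted. In Salt 84 of the 86 rising members were called higher and 2 lower, where 40.5% of all genes were higher and 39.1% lower. In Salt + HL they were 78 and 2 (35.8% and 33.5% of all genes), in PQ 76 and 2 (40.2% and 39.0%), in PQ + HS 70 and 5 (42.1% and 42.1%), in Salt + PQ 67 and 3 (40.2% and 38.5%) and in HS 64 and 2 (37.2% and 34.2%). In PQ + HL 52 were called higher and 2 lower (35.9% and 34.4%).

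In HL, 38 of the rising members were called higher and 8 lower (38.5% and 37.5% of all genes), and in Salt + PQ + HS 40 and 19 (42.2% and 42.4%). In HL + HS the counts were 37 higher and 33 lower (42.7% and 43.2%), and in Salt + HS 27 and 29 (35.6% and 33.9%). Salt + HL + HS was the treatment in which most rising members were lower, with 26 called higher and 50 lower (42.9% and 43.0%). When every library was instead scaled to the same total, the median of all genes shifted by up to -0.86 on the log2 scale (in HL + HS), and the split changed to 31 higher and 18 lower in HL (26.5% and 52.7% of all genes under that scaling), 54 and 11 in PQ + HS (18.6% and 71.9%), 25 and 55 in HL + HS (14.3% and 78.8%) and 25 and 44 in Salt + PQ + HS (15.5% and 76.3%).

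Of the 79 falling members, 62 were called lower and 11 higher in Salt + HL, 49 and 19 in PQ + HS, 48 and 16 in Salt + PQ, 46 and 17 in Salt, 45 and 15 in HS and 44 and 20 in HL + HS. The counts were closer to each other in PQ (33 lower and 29 higher), Salt + PQ + HS (33 and 27), Salt + HL + HS (33 and 26) and PQ + HL (28 and 32). In HL, 43 were called higher and 12 lower, and in Salt + HS 36 were higher and 17 lower, so that in these treatments more falling members were higher than lower. With the same total per library the split was 31 higher and 23 lower in Salt + HS (27.6% and 44.6% of all genes), 14 and 60 in HL + HS, 19 and 51 in Salt + PQ + HS and 18 and 54 in Salt + HL + HS (14.6% and 78.1%). The other shares of all genes are those given for the rising members.

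**Figure D4:**
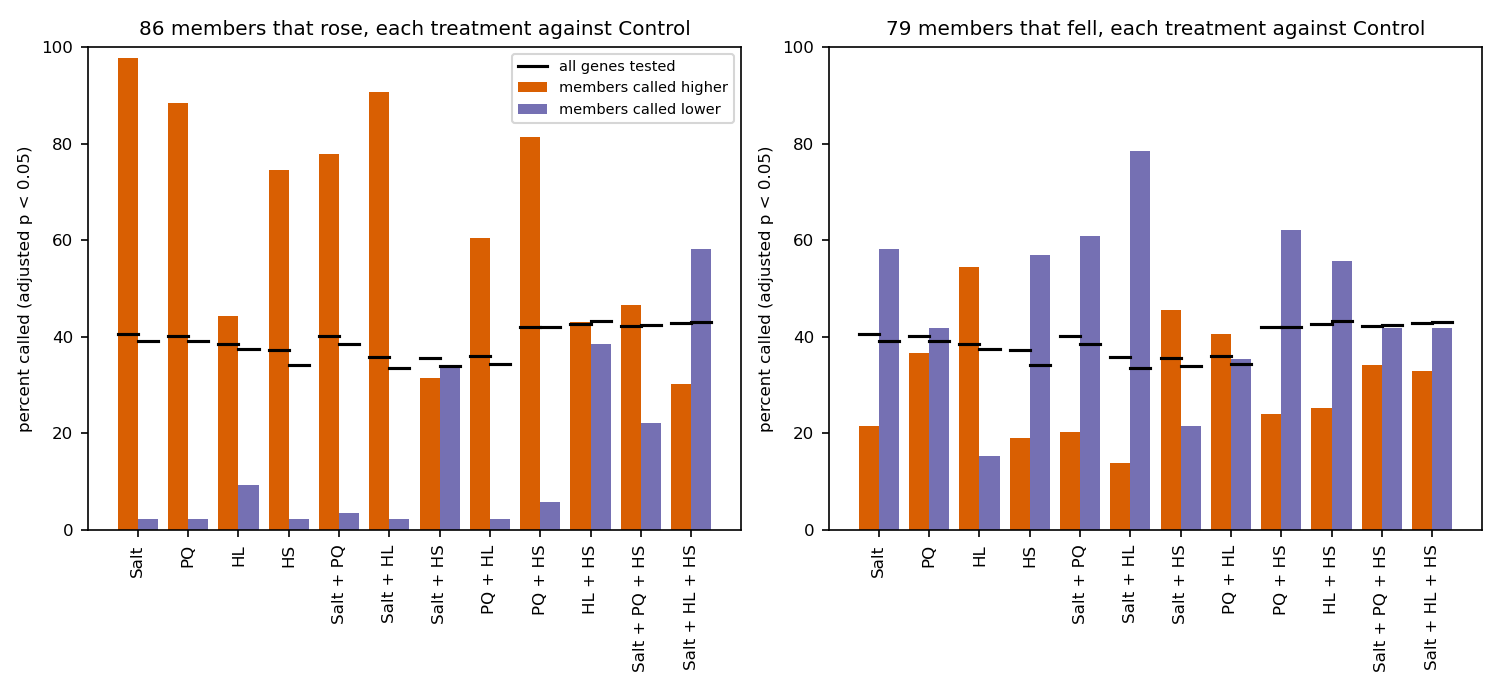
Percent of the 86 rising members (left) and of the 79 falling members (right) called higher (orange) and lower (purple) against Control in each of the 12 other treatments. Black lines give the percent of all genes tested that were called in the same direction, and the y axis starts at 0. Salt has 84 of the 86 rising members called higher, and Salt + HL + HS has 50 called lower.

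Summed over the 12 treatments, the rising members had 659 calls higher and 157 lower, and the falling members 291 higher and 450 lower, where 39.5% of the comparisons over all genes were called higher and 38.4% lower. Without the 10 and 9 members that passed the level filter through the 12 treatments alone, the sums were 543 higher and 157 lower for 76 rising members, and 204 higher and 445 lower for 70 falling members. Of the rising members, 20 were called higher in all 12 treatments, among them TIP2;2, TIP2;3, AT5G15120, LBD41, AT2G38240, AT1G10585 and RAP2.6, and 35 in at least 9, against 16.4% and 27.3% of all genes. Of these 20, at least 8 passed the level filter through the 12 treatments alone, and of the 35, at least 10 did. Their higher calls there were favoured by the filter as well as by the shared Control. Of the falling members, 3 were called lower in all 12 (NAS3, AT1G18830 and NAC103) and 24 in at least 9, against 11.5% and 24.6% of all genes. NAS3 makes nicotianamine, which binds iron and other metals. By contrast, 9 falling members were called higher in all 12 (AT1G20310, AT1G42980, 5PTASE11, ERDJ3A, AT3G46080, HSP17.4, HSP22.0, HSP17.6A and AT5G53680). Of these 9, at least 5 (AT1G20310, AT1G42980, HSP17.4, HSP22.0 and AT5G53680) passed the level filter through the 12 treatments alone, which favours such calls. Both directions of call were found within a member for 52 of the rising and 37 of the falling genes. The share of all genes called in both directions was not counted. With 39.5% of all comparisons called higher and 38.4% lower, nothing is read from these counts about the members.

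Among the rising members, AT1G14185 and AT5G59680 were called lower in at least 9 of the 12 treatments. AT1G14185, annotated as an oxidoreductase, had 399, 363 and 338 normalized counts under PQ + HL + HS, 405, 403 and 435 under Salt + PQ + HL and 391, 354 and 338 under Salt + PQ + HL + HS, against 225, 215 and 229 in Control. AT5G59680, a leucine-rich repeat receptor kinase, had 236, 207 and 191 under PQ + HL + HS, 322, 344 and 326 under Salt + PQ + HL and 265, 232 and 278 under Salt + PQ + HL + HS, against 137, 131 and 149 in Control. Both were apart from Control in the 3 combinations. AT1G14185 averaged 74.7 ± 18.8 in Salt + HL + HS and AT5G59680 averaged 44.6 ± 6.7 in Salt + HS (SD, n = 3 each).

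How the members differ by labelled stress was tested among the 12 other treatments alone, without Control or any library the rule used. Each effect is the mean, over pairs of groups that differ in this label, of the log2 level with the label minus that without it, with limma and adjustment as above. Since the heat response level did not follow the labels, these are effects of labels. Medians over single pairs are given for the members alone, without those of all genes.

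The label HS went with lower levels of most rising members. Of the 86, 67 were called lower and 13 higher (median log2 difference -1.0), where 45.6% of all genes were lower and 42.4% higher. With the same total per library 75 were lower and 8 higher, where 81.4% of all genes were lower and 12.5% higher. Of the 79 falling members, 34 were higher and 28 lower (median 0.08), and 20 and 44 with the same total per library (12.5% and 81.4% of all genes). XTH13 had a heat effect of -2.61 ± 0.16 (SE, adjusted p = 1.3e-19), the largest fall among rising members. HAK5 had -1.83 ± 0.12 (adjusted p = 1.51e-18) and RHS13 -1.32 ± 0.08 (adjusted p = 2.96e-19). AT5G15120 was an exception at 0.49 ± 0.06 (adjusted p = 1.9e-10). The pairs differed: the median difference of the rising members was -2.07 in Salt + HS against Salt and -2.00 in Salt + HL + HS against Salt + HL, but 0.21 in PQ + HS against PQ.

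The label HL also went with lower levels of the rising members. Of the 86, 61 were called lower and 10 higher (median -0.63), where 40.5% of all genes were lower and 38.6% higher, and the median difference lay between -0.75 and -0.62 in each of the 4 pairs. With the same total per library 74 were lower and 6 higher, where 78.1% of all genes were lower and 10.4% higher. Of the falling members, 41 were lower and 20 higher (median -0.20), and 54 and 9 with the same total per library (78.1% lower and 10.4% higher over all genes). FLA6, an arabinogalactan protein of the cell surface, had an effect of -2.05 ± 0.19 (SE, adjusted p = 2e-13), HAK5 had -1.75 ± 0.13 (adjusted p = 6.75e-16) and RHS13 -1.02 ± 0.09 (adjusted p = 9.79e-14). CYP82C2 had -1.97 ± 0.24 (adjusted p = 9.49e-10), the largest fall among falling members.

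The label Salt went with lower levels of the rising members on average, yet the pairs went apart. Of the 86, 61 were called lower and 4 higher (median -0.36), where 24.1% of all genes were lower and 20.9% higher. The count of 4 was 2 without replicate 1. The median difference was 0.93 in Salt + HL against HL and negative in the other 4 pairs, down to -0.89 in Salt + HS against HS. Of the falling members 34 were called lower and 8 higher (median -0.17), and 30 and 14 with the same total per library (17.4% lower and 30.7% higher over all genes). This direction turned when the pairs were limited to those labelled HS, an alternative added after the data had been seen, since 62 falling members were then higher and 4 lower, and 70 rising members were lower and 6 higher, where 31.7% of all genes were higher and 32.9% lower. In the pairs without that label the falling members had medians of -0.94 (Salt + PQ against PQ) and -2.06 (Salt + HL against HL). XTH13 had a salt effect of -1.05 ± 0.16 (SE, adjusted p = 3.08e-07), CRU3 had -1.48 ± 0.34 (adjusted p = 0.00034), NRT1.8 had 0.73 ± 0.05 (adjusted p = 2.13e-16) and AT3G49055 had 0.31 ± 0.09 (adjusted p = 0.00374). AT3G49055 lost its call without replicate 1 (adjusted p = 0.108) and without replicate 2 (adjusted p = 0.0581).

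The label PQ had more rising members called higher than lower and more falling members called lower than higher, but for the rising members this turned with the same total per library. Of the rising members, 36 were called higher and 14 lower (median 0.12), where 38.3% of all genes were higher and 38.3% lower. The share of higher calls is close to that of all genes. That scaling gave 18 higher and 39 lower (11.6% and 77.3% of all genes), and without replicate 2 the lower calls were 6. Of the falling members 45 were lower and 14 higher (median -0.36). The median difference of the rising members was -0.77 in Salt + PQ against Salt and 0.12 to 0.63 in the other pairs. TIP2;3 had a paraquat effect of 0.59 ± 0.07 (SE, adjusted p = 1.52e-10) and AT5G15120 had 0.82 ± 0.06 (adjusted p = 2.13e-15), while PDF1.2c had -1.24 ± 0.26 (adjusted p = 5.25e-05). Among falling members DFR had -1.36 ± 0.11 (adjusted p = 5.81e-15) and AT4G11170 had -1.79 ± 0.21 (adjusted p = 3.47e-10).

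Members at the ends of these lists were often those with few reads. AT3G16040, which rose, and AT5G53680, which fell, had the largest rises with the labels PQ, HL and HS in their direction. AT3G16040, annotated as a TMA7 protein of the translation machinery, had effects of 3.28 ± 0.17 for PQ, 2.96 ± 0.17 for HL and 3.96 ± 0.15 for HS (SE, adjusted p = 2.25e-21, 9.12e-20 and 1.3e-26). AT5G53680, an RNA-binding protein, had 3.56 ± 0.16 for PQ, 2.83 ± 0.16 for HL and 4.58 ± 0.14 for HS (adjusted p = 5.77e-24, 2.11e-20 and 1.96e-30). The largest heat fall among falling members was in 5MAT, at -1.68 ± 0.19 (adjusted p = 1.33e-10). AT3G16040 and AT5G53680 had passed the level filter only through the 12 other treatments, so the filter favours large differences among these treatments in both genes.

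Whether the difference for the label HS depended on the label HL was tested under salt, the only such square of groups without Control and the 3 combinations. The interaction, (Salt + HL + HS minus Salt + HL) minus (Salt + HS minus Salt), was positive for 29 and negative for 32 of the rising members, and positive for 31 and negative for 28 of the falling ones, where 39.9% of all genes were positive and 40.2% negative. These shares are close to those of all genes. With the same total per library they were 19 and 53 for the rising and 21 and 43 for the falling members (13.8% and 76.0% of all genes), and without replicate 1 the count of 32 was 20.

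**Figure D5:**
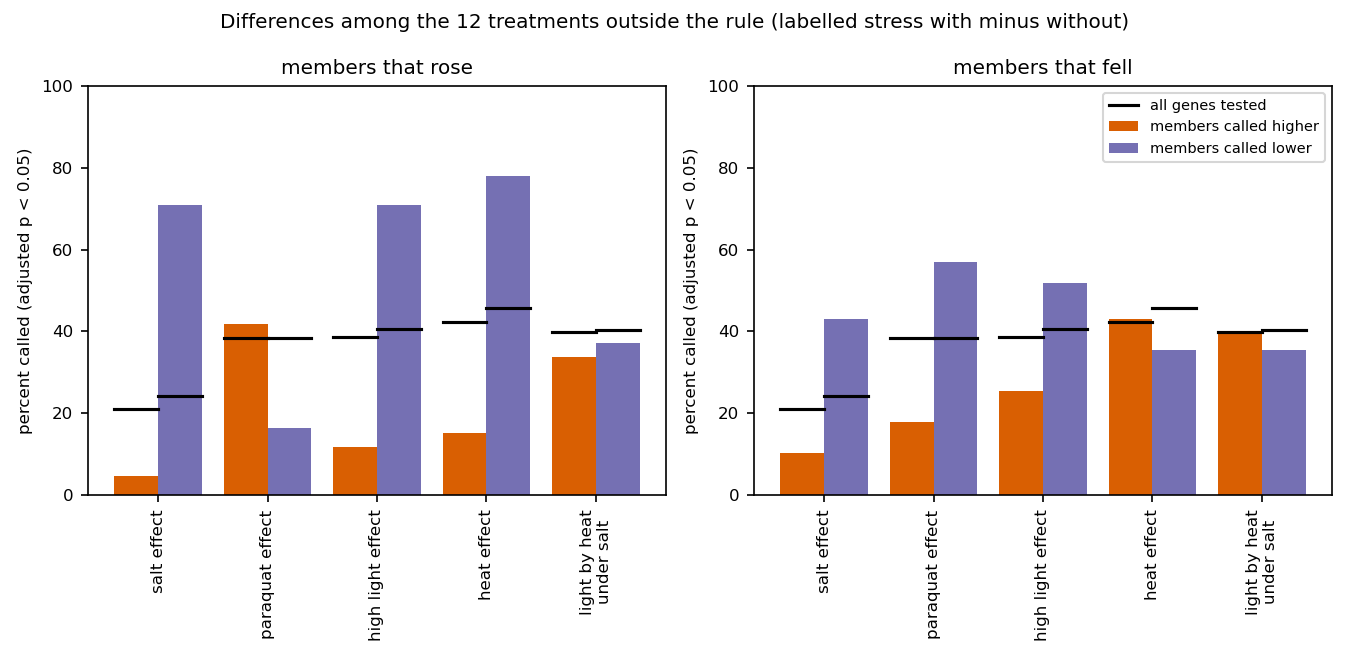
Percent of the rising (left) and falling (right) members called higher (orange) and lower (purple) for each labelled stress and for the light by heat interaction under salt. Black lines give the percent of all genes tested that were called in the same direction, and the y axis starts at 0. HS has 67 of the 86 rising members called lower, and HL has 61.

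Lists of genes written with earlier results of these data known were counted last, beside the 0.447% and 0.411% of all genes with a mean of at least 50 that rose and fell. Beyond the lists above, 2 of 17 aquaporins (TIP2;2 and TIP2;3) and 1 of 8 measured root markers (EXPA7) rose. Of 14 genes of the jasmonate and ethylene list, PDF1.2c rose and PDF1.1 fell. The leaf markers and the other 14 lists held 0 members.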

How the data were processed

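Whole Col-0 seedlings were profiled by RNA-Seq in 48 libraries, 3 in each of 16 groups. Per the labels and the methods, the authors used FastQC 0.11.7 for read quality and STAR 2.4.0.1 for alignment to TAIR genome build 10, counted reads per gene and normalized the counts with DESeq2 (1.20.0 in the submitters' processing notes). The deposited values have the unit signal, namely reads divided by a size factor of each library (0.594 to 1.34), and 100% of them gave whole reads once multiplied back. They are not per length, so levels were not compared between genes. Columns of other samples that were not assigned numbered 0. Seedlings exposed to acidity or a heavy metal were not analysed here.

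Members were selected as the report states, on the deposited values, and 4 genes at 0 in Control were left out because they have no ratio. The members and the gene lists were chosen with earlier results of these data known. Log2(value + 1) was fitted with limma 3.58.1 (R 4.3.3) with a trend, using a term for each group over all 48 libraries and 21536 genes with a mean of at least 10. P-values were adjusted by Benjamini-Hochberg within each comparison at a threshold of 0.05, tests were two-sided, and fold changes on this scale understate the change of genes with low values. The methods describe the 3 samples of a group as biological replicates of pooled plate-grown seedlings, and p-values measure the spread between them. Replicates of every group differed by more than sampling noise.

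Named genes were, for each direction, the 10 members with the largest minimum change whose 9 libraries were apart from Control, the 4 that moved most the opposite way in the other treatments, the 4 that moved least there, the 2 nearest the threshold on each side, members of a list, those with the largest rise and fall for each stress label, and the 2 with the largest interaction. Other genes were named after their values had been seen. Of the 32833 gene identifiers, 32548 were found in RefSeq TAIR10.1, which gave promoters, exons and product names. The steps were tested on simulated data. Alternatives were another scaling, pseudocount, filter, replicate set or fold, a replicate block, edgeR 4.0.16 and DESeq2 1.42.0 on the recovered reads. Python 3.11.15 with numpy 2.4.6, pandas 2.3.3 and matplotlib 3.10.9 was used for the remaining steps.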

Additional observations from a re-analysis of the deposited data

Results flagged for a closer look

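The 4 members given here, 2 in each direction, were those whose difference for the label HS under salt depended most on the label HL. The test was the interaction term in limma. It was called positive in 39.9% and negative in 40.2% of all genes, so a call as such does not set these members apart. Among the rising members, ELI3-2 had an interaction of 10.13 ± 0.55 on the log2 scale (SE, adjusted p = 7.12e-21), with medians of 2743 normalized counts in Salt + HL + HS, 55.3 in Salt + HL, 62.4 in Salt + HS and 1146 in Salt. LEA3, a late embryogenesis abundant protein, had 9.65 ± 0.12 (adjusted p = 6.65e-45), with medians of 5945 in Salt + HL + HS, 327 in Salt + HL, 144 in Salt + HS and 6508 in Salt. Among the falling members, AT5G53680 had 12.88 ± 0.44 (adjusted p = 4.02e-28), with medians of 6328 in Salt + HL + HS, 5.93 in Salt + HL, 9.40 in Salt + HS and 91.5 in Salt. HSP22.0 had 11.29 ± 0.36 (adjusted p = 1.28e-29), with medians of 568583 in Salt + HL + HS, 2328 in Salt + HL, 3292 in Salt + HS and 34755 in Salt. AT5G53680, HSP22.0 and ELI3-2 passed the level filter only through the 12 other treatments, Salt + HL + HS among them. ELI3-2 had a mean above the minimum in PQ + HL + HS (84.7) but averaged less than the minimum over Control and the 3 combinations together. The filter thus favours high values in the 12 treatments. The p-values of AT5G53680, HSP22.0 and ELI3-2 are therefore not independent of how these genes were chosen. In all 4 genes both Salt + HL and Salt + HS, the second of which is labelled as heated, were lower than Salt.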

How the results depend on the processing

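The number of members depended on the rule. With at least 2-fold there were 18 that rose and 23 that fell, and with a mean of at least 10 there were 171 and 183. Over 2 of the combinations, added after the data had been seen, 339 rose and 342 fell without PQ + HL + HS, and 281 and 132 without Salt + PQ + HL + HS. Leaving out replicates gave 81 to 111 rising and 81 to 95 falling members. Of the counts that answer a comparison, 263 of 292 values stayed within 1.5 times the count reported, and those that did not are given here. With the same total per library, lower calls of rising members summed to 239 over the 12 treatments, the paraquat effect had 18 rising members higher and 39 lower, high light 6 rising and 9 falling members higher, heat 8 rising and 20 falling members higher and 44 falling members lower, salt 14 falling members higher, and the interaction 19 rising members higher and 53 lower and 43 falling members lower. The shares of all genes for these effects under that scaling are those given above. With pairs labelled HS only, added after the data had been seen, paraquat had 57 rising and 25 falling members higher, high light 22 rising and 32 falling members higher, and salt 62 falling members higher and 4 lower. Of all genes in these pairs, 42.5% were higher for paraquat and 42.6% for high light. For salt, 31.7% of all genes were higher and 32.9% lower. Leaving out each replicate in turn gave 2 to 4 rising members higher for salt, 6 to 15 lower for paraquat and 20 to 33 lower for the interaction. For single genes 946 of 964 values held, and AT3G49055 lost its salt call in 2 of them. The causes were not tested. The replicate numbers did not pair the samples (correlations of deviations from -0.26 to 0.13), and with the replicate block the rising members had 657 calls higher and 157 lower over the 12 treatments and the falling members 291 and 453, with every count within 1.5 times the one reported. Depth limits the members with at most 3 reads in Control.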
